A study of Dendrobium catenatum with 16 samples.

Results

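The comparison described here set plantlets of the orchid Dendrobium catenatum on 6-BA at 1.0 mg/L against plantlets without 6-BA, after 2 and after 4 weeks. It took the libraries at 1.0 and 0 mg/L from the count table of older plantlets, 4 of the 16 libraries of the series, and each 1.0 mg/L library was set against the 0 mg/L library of its own week. 6-BA (6-benzyladenine) is a synthetic cytokinin. There was 1 library for each dose and week, so a difference had no replicate check, and the text keeps to genes that differed by at least 2-fold in the same direction in both weeks. The pairs of the 2 and 4 week libraries have no library in common.

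The older plantlets were 9 months old and came from seed germinated in culture on half-strength MS medium with sucrose, agar and potato. They received distilled water (0 mg/L) or 6-BA at 0.5, 1.0 or 2.0 mg/L. Poly(A) RNA came from pooled aerial tissue, namely young leaves, stems and shoots. A separate experiment used younger plantlets, aged 2 months, for 3 weeks. They received water, 6-BA (1.0 mg/L), the synthetic auxin NAA (0.1 mg/L) or NAA and 6-BA together, with 2 libraries in each group. The labels do not say whether those 2 libraries came from separate culture vessels, so p-values measure only the spread between these libraries.

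Cytokinins are adenine-derived hormones that are best known for promoting cell division and shoot formation and for delaying leaf senescence. They bind histidine kinase receptors, and the signal passes through phosphotransfer proteins to response regulators in the nucleus. Type-A response regulators and cytokinin dehydrogenases, which degrade the hormone, are typically switched on by it and damp the response.

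The 8 libraries of older plantlets held 15.1 to 16.3 counts in units of 1e6, and those of the young plantlets 34.3 to 74.5 in the same units. Levels are given as CPM, read counts per 1e6 counts of the TMM-scaled library, and the counting floor of 3 counts lay between 0.171 and 0.219 CPM. CPM is not divided by gene length, so levels are compared between libraries and not between genes. The leaf label was met by the photosynthesis genes: none of 52 was at 0 in any of the 8 libraries and their sum was 28300 to 89300 CPM. Root markers summed to 358 to 521 CPM and flower and pollen markers to 380 to 665 CPM. The libraries did not order by dose or by week. Across genes, the 1.0 mg/L libraries of 2 and 4 weeks correlated at 0.954 on the log2 CPM scale. The 4 week library at 0 mg/L correlated at 0.965 with the 2.0 mg/L library of the same week but at 0.854 with the 1.0 mg/L library. The 2 week library at 1.0 mg/L stood as close to 2.0 mg/L at 2 weeks (0.957) and 0.5 mg/L at 4 weeks (0.956) as to its own dose. Whether labels were exchanged or the mix of tissues differed between libraries was not tested, and each dose below is the dose on the label. Values at the other doses are given for some of the genes and lists.

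Lower levels were more frequent than higher ones. Of 21267 genes that passed the filter on low counts, 316 (1.49%) were at least 2-fold higher at 1.0 than at 0 mg/L in both weeks and 1145 (5.38%) at least 2-fold lower. The log2 ratios, taken on CPM + 0.5, were larger at 4 weeks, with a median absolute value of 0.59 against 0.33 at 2 weeks. At 2 weeks alone 773 genes (3.63%) were higher and 2142 (10.1%) lower by at least 2-fold, and at 4 weeks 2903 (13.7%) and 3336 (15.7%). Opposite directions in the 2 weeks were seen for 281 genes, 69 (0.324%) higher and then lower and 212 (0.997%) lower and then higher. Across all genes tested the ratios of the 2 weeks correlated at 0.50. Their medians were 0.01 and -0.01 with TMM scaling and -0.16 and -0.20 with library totals, which gave 198 higher and 1377 lower genes.

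**Figure D1:**
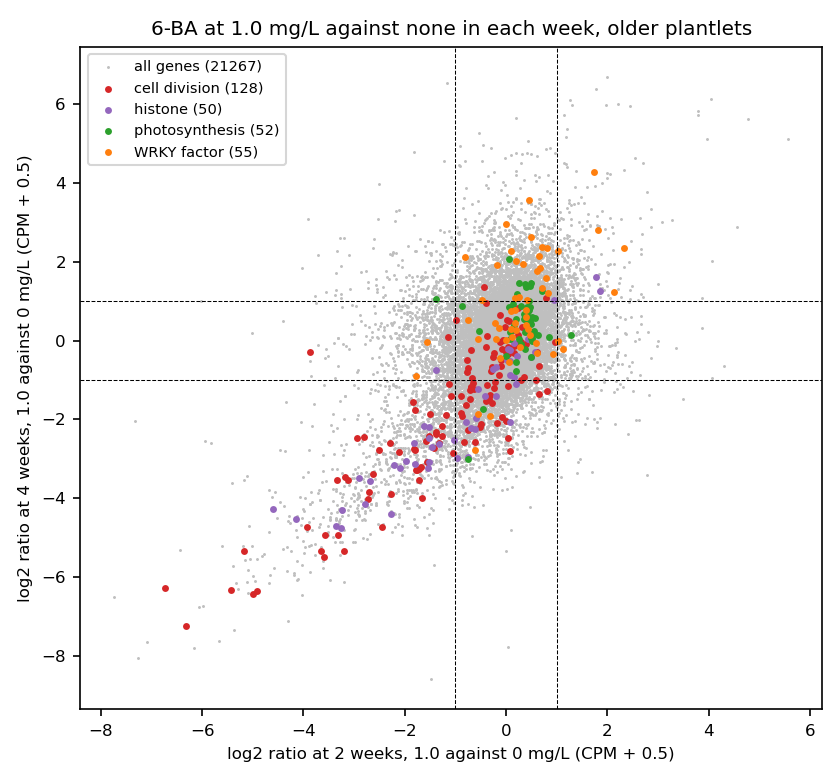
Log2 ratio of CPM + 0.5 at 1.0 against 0 mg/L 6-BA for each of 21267 genes, at 2 weeks (x axis) and 4 weeks (y axis), 1 library per dose and week. Dashed lines mark 2-fold. Cell division genes (red) and histones (purple) lie mostly in the lower left, and photosynthesis genes (green) and WRKY factors (orange) mostly right of and above 0.

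A test over both weeks was limited by the spread of the experiment. With all 8 libraries, dose as a factor and week as an additive term, edgeR's quasi-likelihood test called 0 of 21267 genes (0%) at a Benjamini-Hochberg adjusted p of 0.05. At an unadjusted p under 0.05 there were 686 genes, and DESeq2 on the same design called 20 higher and 13 lower. With the 4 libraries at 0 and 1.0 mg/L alone, where 1 residual degree of freedom is left, edgeR called 20 genes higher (0.0981%) and 256 lower (1.26%) of 20379. All 276 of these were at least 2-fold in both weeks. The biological coefficient of variation was 0.514 over the 8 libraries and 0.364 over the 4. A p given below for the older plantlets comes from the fit to 4 libraries, unless 8 are named. In the fit to 4 the spread is the disagreement of the ratio between weeks. Genes with such a p were chosen for their ratios in these same libraries, so the p is no separate support. Calls of this fit rest on the same ratios.

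Genes of cell division were lower at 1.0 mg/L far more often than genes at large. Of 128 tested cell division genes, 49 (38.3%) were at least 2-fold lower at 1.0 mg/L in both weeks and none was higher. The shares over all genes were 5.38% lower and 1.49% higher. The median log2 ratio of the cell division genes was -0.69 at 2 weeks and -1.44 at 4 weeks, and 19 were called lower in the fit to 4 libraries. Their summed level went from 3370 CPM at 0 mg/L to 2700 at 1.0 mg/L at 2 weeks, and from 5320 to 2490 CPM at 4 weeks. At 0.5 mg/L the sum was 4240 CPM at 2 weeks and 2560 at 4 weeks, and at 2.0 mg/L it was 2510 and 5540 CPM, so low sums were not limited to 1.0 mg/L. In RNA from mixed tissue, fewer dividing cells and less of these transcripts per dividing cell cannot be told apart.

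The 3 leading lower genes of this list, chosen for their ratios, had at most 13 counts at 1.0 mg/L. Cyclin-B1-1 (LOC110096329), which activates the mitotic kinase, stood at 39.3 CPM without 6-BA and 0 with it at 2 weeks, and at 74.8 and 0 CPM at 4 weeks. Against 3 counts per library it was at least 181-fold lower at 2 weeks and at least 374-fold lower at 4 weeks. The gene, on scaffold NW_021319690.1 from 220789 to 225693, overlaps a heat stress transcription factor gene on the same strand, so reads in the overlap could be assigned to either. Cyclin-A1-4 (LOC110103887) went from 21.1 to 0 CPM at 2 weeks and from 39.6 to 0 CPM at 4 weeks. Cyclin-B1-1 was also at 0.146 CPM with 2.0 mg/L at 2 weeks and at 0 with 0.5 mg/L at 4 weeks, but at 58.1 CPM with 0.5 mg/L at 2 weeks and at 70.9 CPM with 2.0 mg/L at 4 weeks. A CDC20-type gene (LOC110115801), for an activator of the anaphase-promoting complex, went from 60.2 to 0.0723 CPM at 2 weeks, which is 957 counts against 1, a ratio of 832 with an exact 95% counting interval of 149 to 32900. At 4 weeks it went from 106 to 0.868 CPM. The 1.0 mg/L libraries were low for these genes in both weeks and the 0 mg/L libraries high in both, which the choice of genes fixed. At the other doses the level differed between weeks. LOC110115801 stood at 88.2 CPM at 2 weeks and 0 at 4 weeks with 0.5 mg/L, and at 0.146 and 102 CPM with 2.0 mg/L. The values at 2.0 mg/L lay between those at 0 and 1.0 mg/L of the same week, and those at 0.5 mg/L did not.

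Related groups of genes, made after their values had been seen, were lower in part, against shares of 5.38% lower and 1.49% higher over all genes. Of 11 A- and B-type cyclins 6 were at least 2-fold lower in both weeks, of 15 D-type cyclins 5, of 44 kinesin genes 18, and of 15 tubulins 4, with none higher. The A- and B-type cyclins summed to 319 CPM without and 217 CPM with 6-BA at 2 weeks, and to 489 and 220 CPM at 4 weeks, with 3 of 11 at 0 in each 1.0 mg/L library. The kinesin genes went from 1040 to 732 CPM and from 1740 to 665 CPM in sum. Of 6 replication licensing genes 5 were lower, and their summed level went from 173 to 67.4 CPM at 2 weeks and from 420 to 50.6 CPM at 4 weeks. The helicase subunit MCM5 (LOC110105565) had 28.2 CPM without and 8.17 CPM with 6-BA at 2 weeks, and 80.1 and 6.41 CPM at 4 weeks. The tubulin beta-2 chain gene (LOC110097489) went from 85.0 to 1.95 CPM and from 165 to 1.87 CPM, a log2 fold change of -5.96 (SE 0.42, edgeR adjusted p = 0.0104). DNA topoisomerase 2 (LOC110114510), which untangles replicated chromosomes, was named after its values were seen. It stood at 3.33 CPM with 1.0 mg/L at 2 weeks, against 56.0 CPM without 6-BA, 90.0 with 0.5 mg/L and 7.88 with 2.0 mg/L. At 4 weeks it stood at 3.41 CPM, against 145, 13.3 and 148 CPM in the same order. It is 1 of 3 genes (0.0141% of those tested) that were at least 2-fold lower in both 1.0 mg/L libraries than in each of the other 6.

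Histones, which package newly made DNA, were also lower in many cases. Of 50 tested histone genes 22 (44.0%) were at least 2-fold lower in both weeks and 2 (4.0%) higher, against 5.38% and 1.49% of all genes. The medians of the histone genes were -0.77 and -2.17. Their sum went from 5990 to 4680 CPM at 2 weeks and from 10000 to 3840 CPM at 4 weeks. It was 7530 CPM at 2 weeks and 3990 at 4 weeks with 0.5 mg/L, and 3430 and 7360 CPM with 2.0 mg/L. A histone H4 gene (LOC110094121) went from 85.1 to 3.04 CPM and from 172 to 8.35 CPM, with log2 ratios of -4.60 and -4.28. H2B.4 (LOC110106328) went from 107 to 9.91 CPM and from 278 to 10.1 CPM. Histone genes are near-identical copies, and reads may be split among them. Genes of cytosolic ribosomal proteins were lower by smaller steps: 148 of 183 had a ratio below 0 at 2 weeks and 170 at 4 weeks, with medians of -0.20 and -0.86, but only 3 were at least 2-fold lower in both weeks.

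**Figure D2:**
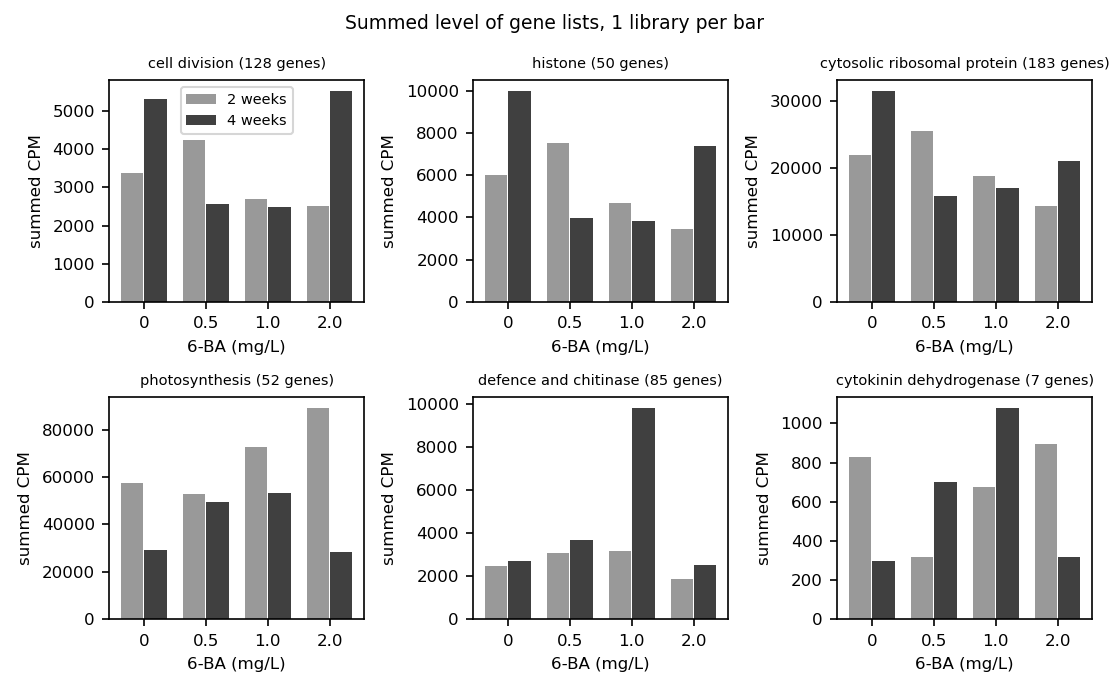
Summed CPM of 6 gene lists in each library of the older plantlets, by 6-BA dose (x axis, mg/L) at 2 weeks (light) and 4 weeks (dark); each bar is 1 library. The cell division sum is 2700 and 2490 CPM at 1.0 mg/L and near it at 2.0 mg/L at 2 weeks (2510) and 0.5 mg/L at 4 weeks (2560).

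Several of the 10 leading lower genes, those with the largest smaller ratio of the 2 weeks, stand outside the division list. The gene for a putative lipid-binding protein (LOC110093376) stood at 67.3 CPM without and 0 with 6-BA at 2 weeks, and at 406 and 1.54 CPM at 4 weeks. Early nodulin-like protein 3 (LOC110113446) went from 76.1 to 0.579 CPM and from 127 to 0.0668 CPM. The ubiquitin-conjugating enzyme E2 20-like gene (LOC110102917), of a class that in Arabidopsis acts in the cell cycle, went from 37.5 to 0.0723 CPM and from 75.4 to 0.20 CPM. Its edgeR adjusted p over 4 libraries was 0.00855, as was that of an inactive leucine-rich repeat receptor kinase gene (LOC110112920). LOC110112920 itself went from 40.4 to 0.145 CPM and from 73.6 to 0.20 CPM. A primary amine oxidase (LOC110092316), a copper enzyme that oxidises polyamines, went from 69.2 to 0.868 CPM and from 137 to 0.20 CPM. For 1 of the 10 both 1.0 mg/L libraries were below each of the other 6 libraries, which held for 1117 (5.25%) of all genes tested. The 10 were chosen for standing below the 0 mg/L libraries, so the shares cannot be compared.

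**Figure D3:**
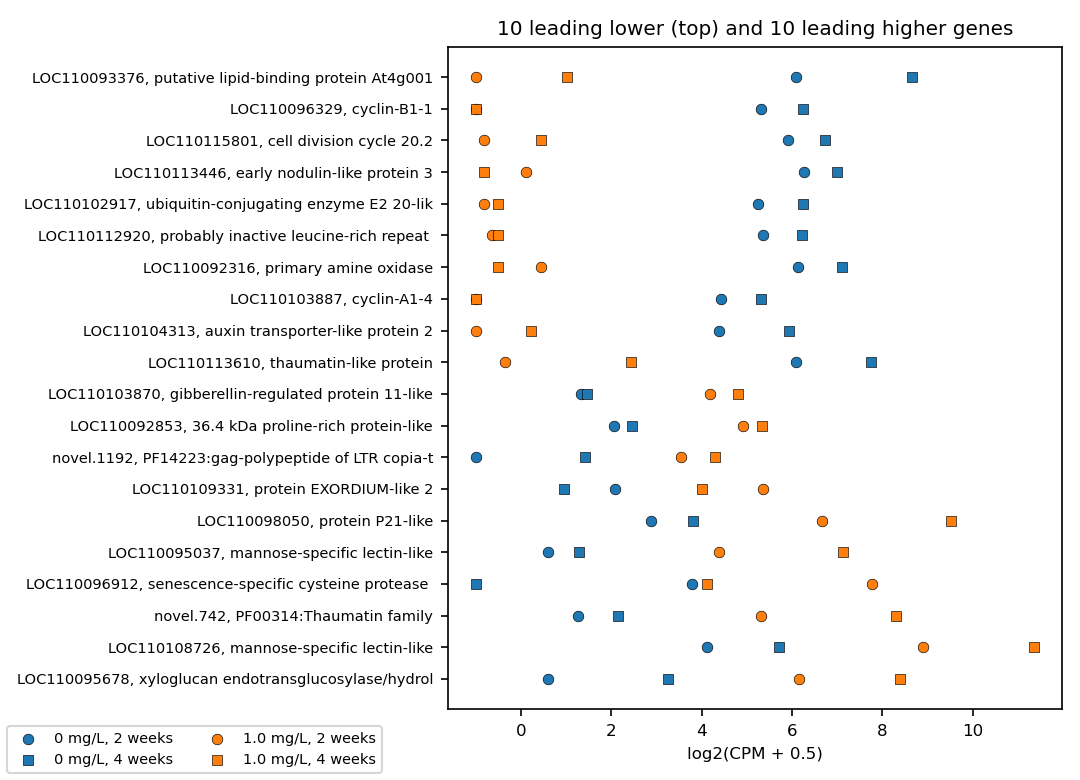
Log2(CPM + 0.5) of the 10 leading lower genes (upper rows) and the 10 leading higher genes (lower rows) in the 4 libraries at 0 mg/L (blue) and 1.0 mg/L (orange), at 2 weeks (circles) and 4 weeks (squares); each point is 1 library. The genes were chosen for these differences; cyclin-B1-1 is at 0 counts in both 1.0 mg/L libraries.

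Genes that loosen or build the wall of growing cells were more often lower than higher, though most were in neither class. Over all genes tested 5.38% were lower and 1.49% higher. Expansins, which loosen walls at acid pH, had 5 of 16 members at least 2-fold lower in both weeks and none higher. Expansin-A10-like (LOC110106794) went from 26.1 to 3.83 CPM at 2 weeks and from 32.3 to 3.14 CPM at 4 weeks. Of 88 pectin-modifying genes 18 were lower and 3 higher, and pectinesterase 68 (LOC110113172), which removes methyl groups from pectin, went from 40.2 to 1.45 CPM and from 172 to 8.88 CPM. Of 26 cellulose synthase genes 3 were lower and none higher.

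Xyloglucan endotransglucosylases, which cut and rejoin the tethers between cellulose fibrils, split in 2 directions. Of 22 tested, 6 (27.3%) were at least 2-fold lower in both weeks and 2 (9.09%) higher, against 5.38% and 1.49% of all genes. One gene of the family (LOC110093026) went from 46.6 to 1.88 CPM and from 133 to 0.468 CPM. Family member 2 (LOC110095678, scaffold NW_021395205.1 from 704361 to 707154) had instead the largest smaller ratio of the 2 weeks among described genes that were higher and had a mean of at least 5 CPM. It stood at 1.01 CPM without and 70.9 CPM with 6-BA at 2 weeks, and at 9.07 and 333 CPM at 4 weeks, a log2 fold change of 5.59 (SE 0.42, edgeR adjusted p = 0.0104). With 0.5 mg/L it stood at 2.78 and 122 CPM, and with 2.0 mg/L at 30.0 and 2.00 CPM. Member 33 (LOC110108817) went from 3.71 to 28.6 CPM and from 7.87 to 113 CPM.

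Among regulators of leaf and organ growth, lower genes outnumbered higher ones, but most genes were in neither class. Lower genes also outnumbered higher ones over all genes tested, at 5.38% and 1.49%. Growth-regulating factors, which promote cell proliferation in young leaves, were grouped after their values had been seen: 4 of 10 were at least 2-fold lower in both weeks and none higher. Growth-regulating factor 6 (LOC110107122) went from 26.8 to 1.16 CPM and from 107 to 3.67 CPM, with an edgeR adjusted p of 0.0104. In the wider list of shoot meristem and leaf patterning 12 of 104 were lower and 1 higher. YABBY 4 (LOC110093862), of a family that sets the lower leaf face, went from 35.3 to 5.57 CPM and from 73.3 to 3.61 CPM. Auxin response and transport had 13 of 86 genes lower (15.1%) and 3 higher (3.49%), both above the shares over all genes. The auxin importer gene auxin transporter-like protein 2 (LOC110104313) went from 20.4 to 0 CPM and from 61.1 to 0.668 CPM, and the auxin exporter component 1b (LOC110114140) from 49.1 to 1.59 CPM and from 87.3 to 5.61 CPM. PIN-LIKES 7-like (LOC110101370), of an auxin carrier family of the endoplasmic reticulum, went the other way, from 28.0 to 82.4 CPM and from 5.17 to 62.9 CPM. Genes of the cuticle and its waxes, another group made after values were seen, had 20 of 95 members lower and 4 higher. ECERIFERUM 26-like (LOC110096481), of a family that acts in the elongation of wax precursors, went from 85.1 to 6.44 CPM and from 98.7 to 7.75 CPM. Of the bHLH transcription factors 6 of 62 were lower (9.68%) and none higher.

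**Figure D4:**
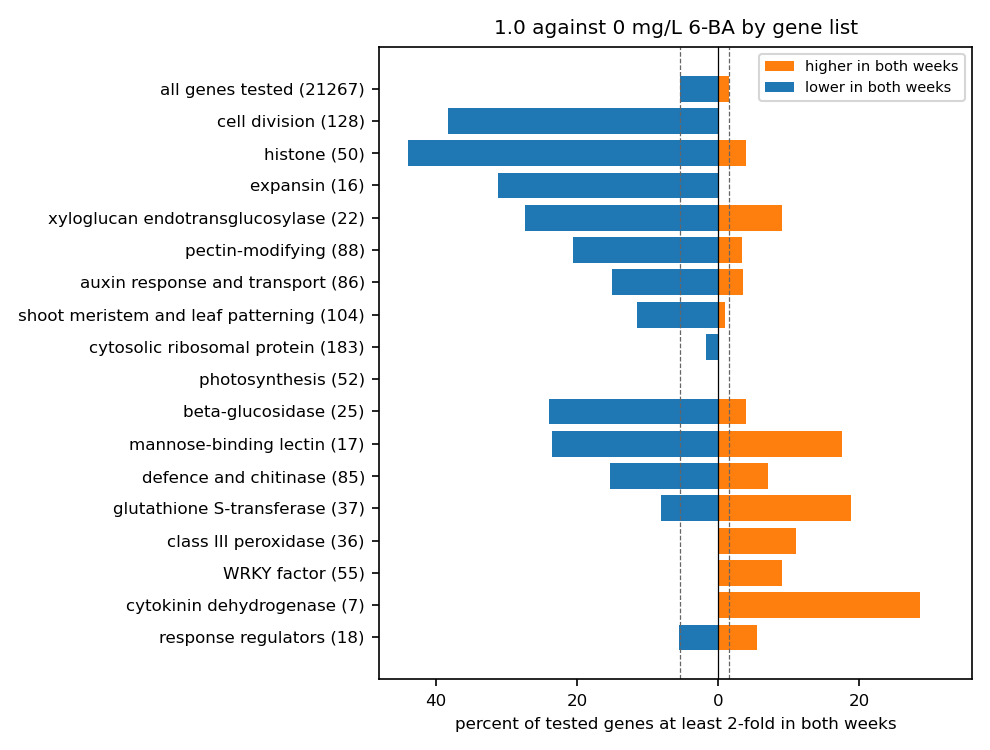
Percent of the tested genes of each list that were at least 2-fold higher (orange, right) or lower (blue, left) at 1.0 than at 0 mg/L in both weeks, with the number tested in brackets. Dashed lines mark 5.38% lower and 1.49% higher over all genes; 38.3% of cell division genes and no photosynthesis gene are on the lower side.

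Cytokinin's own turnover genes were higher in part. Of 7 cytokinin dehydrogenase genes 2 were at least 2-fold higher in both weeks and none was lower, against 1.49% and 5.38% of all genes. Both had low levels at 2 weeks, and with a pseudocount of 2 both missed 2-fold there, at log2 ratios of 0.80 (LOC110105324) and 0.51 (LOC110107036). Cytokinin dehydrogenase 6 (LOC110105324, scaffold NW_021318832.1 from 2871437 to 2876360) stood at 0.189 CPM without and 1.81 CPM with 6-BA at 2 weeks, which is 3 counts against 25, a ratio of 9.59 with an exact 95% counting interval of 2.93 to 49.6. At 4 weeks it stood at 0.287 and 11.4 CPM. The values at 0.5 mg/L were 2.2 and 0.848 CPM and those at 2.0 mg/L 1.09 and 3.60 CPM, all above both libraries without 6-BA. Its log2 fold change over both weeks was 4.39 (SE 0.87) and missed the threshold (edgeR adjusted p = 0.0957).

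The other family members were less even. Cytokinin dehydrogenase 3-like (LOC110107036) went from 0.314 to 1.30 CPM at 2 weeks and from 0.0574 to 29.0 CPM at 4 weeks, where 1 count stood against 434, but it was also at 15.4 CPM with 0.5 mg/L at 4 weeks. Its smaller log2 ratio was 1.15, and 0.83 with the authors' FPKM. Cytokinin dehydrogenase 4-like (LOC110102256), which overlaps a gene on the opposite strand, was near level at 2 weeks (10.1 and 10.5 CPM) and higher at 4 weeks (8.21 and 30.3 CPM). The most abundant in CPM, cytokinin dehydrogenase 11 (LOC110094204), went from 814 to 660 CPM at 2 weeks and from 284 to 1005 CPM at 4 weeks. It carried most of the family's sum, which went from 830 to 676 CPM and from 298 to 1080 CPM.

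Response regulators showed little at this threshold: of 18 tested, 1 was higher and 1 lower in both weeks, and with library totals none was higher. The type-A regulator ORR9 (LOC110097157) went from 6.04 to 12.7 CPM and from 7.75 to 19.6 CPM, with log2 ratios of 1.02 and 1.29. The smaller ratio was 0.84 with library totals and 0.87 with a pseudocount of 2, under 2-fold. A second gene described as ORR9 (LOC110101124) went from 18.9 to 29.2 CPM and from 14.2 to 40.1 CPM, so it passed 2-fold at 4 weeks only. Both 1.0 mg/L values of each gene lay above both 0 mg/L values. The lower one, ORR6-like (LOC110108467), was at 0.503 and 0 CPM at 2 weeks and at 2.70 and 0.0668 CPM at 4 weeks. Its smaller log2 ratio was -1.004, at the threshold and on few counts. In young plantlets it rose (log2 fold change 1.56, edgeR adjusted p = 0.0281). Among genes of cytokinin synthesis and activation 1 of 14 was lower (7.14%), and among those of perception and phosphotransfer 1 of 11 (9.09%). The shares over all genes were 5.38% lower and 1.49% higher. Of 6 cytokinin glucosylation genes none reached 2-fold in both weeks.

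Defence genes went in both directions. Of 85 tested in that list 6 (7.06%) were at least 2-fold higher in both weeks and 13 (15.3%) lower, against 1.49% and 5.38% of all genes. The summed level of the list went from 2480 to 3180 CPM at 2 weeks and from 2690 to 9840 CPM at 4 weeks. A gene for pathogenesis-related protein 1 (LOC110100713), a secreted protein that marks salicylic acid responses, went from 202 to 809 CPM and from 39.8 to 4164 CPM. It stood at 236 and 951 CPM with 0.5 mg/L and at 201 and 79.3 CPM with 2.0 mg/L. Chitinases that digest fungal walls were among the higher genes, such as chitinase 4-like (LOC110097031), which went from 2.77 to 12.9 CPM and from 3.33 to 71.8 CPM. In the thaumatin-type group, made after values were seen, 2 of 18 were higher and 5 lower. P21-like (LOC110098050) went from 6.85 to 101 CPM and from 13.4 to 735 CPM, while a thaumatin-like gene (LOC110113610) went from 67.7 to 0.289 CPM and from 215 to 4.94 CPM.

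Enzymes of oxidative and toxic stress were more often higher than lower, while over all genes tested 1.49% were higher and 5.38% lower. Of 36 class III peroxidases 4 were at least 2-fold higher in both weeks and none lower, among them a cationic peroxidase 1 gene (LOC110100265) that went from 0.503 to 4.56 CPM and from 1.84 to 46.6 CPM. Of 37 glutathione S-transferases, which attach glutathione to toxic compounds, 7 were higher and 3 lower. GST U17-like (LOC110108305) went from 0.817 to 4.41 CPM and from 2.93 to 54.4 CPM. Of 55 WRKY factors, a family known for defence and senescence control, 5 were higher and none lower, with medians of 0.28 and 0.76. With library totals 4 WRKY factors were higher and 1 lower, 3 peroxidases were higher, and 6 glutathione S-transferases were higher and 5 lower. A gene for WRKY 40 (LOC110111979) went from 1.82 to 11.2 CPM and from 1.32 to 8.82 CPM.

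In the list of chlorophyll breakdown and senescence 3 of 14 genes (21.4%) were higher and none lower, against 1.49% and 5.38% of all genes. All 3 were described as the senescence-specific cysteine protease SAG39-like. The one with the largest difference (LOC110096912) went from 13.4 to 217 CPM at 2 weeks and from 0 to 17.0 CPM at 4 weeks, where it was at least 98.6-fold higher against 3 counts per library. None of 52 photosynthesis genes passed 2-fold in the same direction in both weeks, but 46 had a ratio above 0 at 2 weeks and 43 at 4 weeks, against 10777 and 10535 of all 21267 genes. Their medians were 0.38 and 0.55, and 0.20 and 0.35 with library totals. Their sum went from 57400 to 72600 CPM and from 29100 to 53200 CPM, and it was 89300 CPM with 2.0 mg/L at 2 weeks.

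Of 36 genes in the jasmonate list 4 (11.1%) were higher and 3 (8.33%) lower, against 1.49% and 5.38% of all genes. The higher ones were a pair of TIFY 5A genes and a pair described as 12-oxophytodienoate reductase. TIFY 5A proteins are repressors of jasmonate response, and the reductase is an enzyme class of jasmonate synthesis. All 3 lower ones were described as linoleate 9S-lipoxygenase 5. They entered the list by that description, and a part in jasmonate synthesis was not tested. Of these 3 lipoxygenase genes LOC110108011 went from 3762 to 1370.3 CPM and from 8437 to 1947 CPM. Of 44 sugar transport genes 4 (9.09%) were higher and 2 (4.55%) lower, the latter near the share of all genes. The sugar transport protein MST3 (LOC110106488) went from 21.6 to 51.0 CPM and from 13.8 to 51.8 CPM. It was also at 244 CPM with 0.5 mg/L at 4 weeks. Of 31 alkaloid-related genes 3 were higher and none lower, including a tropinone reductase homolog (LOC110101810) that went from 1.70 to 5.21 CPM and from 4.77 to 103 CPM.

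The study's title names beta-glucosidases, which release glucose from glucosides. Of 25 tested, 6 (24.0%) were at least 2-fold lower in both weeks and 1 (4.0%) was higher, against 5.38% and 1.49% of all genes. The higher one, beta-glucosidase 1-like (LOC110092217), went from 111 to 258 CPM and from 175 to 433 CPM, with log2 ratios of 1.22 and 1.30. It was at 157 and 1979 CPM with 0.5 mg/L and at 236 and 172 CPM with 2.0 mg/L, so its highest library was not at 1.0 mg/L. LOC110100117, described as furostanol glycoside 26-O-beta-glucosidase-like after an enzyme that acts on steroidal saponins, went from 5.09 to 0 CPM, at least 23.5-fold lower, and from 51.3 to 0.267 CPM. Its log2 ratios were -3.48 and -6.08, and the edgeR adjusted p was 0.0112. A beta-glucosidase 22 gene (LOC110115815) went from 24.8 to 1.88 CPM and from 40.8 to 7.95 CPM. A second gene of that description (LOC110109493), with a mean of 44.7 CPM, went the other way. Its smaller log2 ratio was 0.84, under 2-fold. Beta-glucosidase 2 (LOC110109741) went from 7.86 to 2.10 CPM and from 21.8 to 2.94 CPM. The remaining lower members were both genes described as BoGH3B or BoGH3B-like (LOC110107269 and LOC110107248) and a beta-glucosidase 2-like gene (LOC110095182) that was under 6 CPM in all 4 libraries.

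Genes for mannan, the storage and wall polysaccharide of Dendrobium stems, did not move as a group. Of 25 genes of glucomannan and mannan synthesis 2 (8.0%) were higher and 2 (8.0%) lower in both weeks, against 1.49% and 5.38% of all genes. Glucomannan mannosyltransferase 1 (LOC110107853) went from 114 to 363 CPM and from 26.1 to 111 CPM. A mannosyltransferase 11 gene (LOC110108629) went from 2.33 to 0.506 CPM and from 192 to 0 CPM, the latter at least 959-fold lower. Its smaller log2 ratio was -0.79 with a pseudocount of 2, under 2-fold, and it rose in young plantlets (log2 fold change 2.05, edgeR adjusted p = 0.00137). LOC110102407 and LOC110107854, also described as mannosyltransferase 11, were higher in both weeks, with smaller log2 ratios of 1.09 and 0.37. LOC110108629 was at 126 and 2.87 CPM with 0.5 mg/L and at 2.70 and 128 CPM with 2.0 mg/L. Of 9 mannan-cutting endo-beta-mannosidases 2 were lower, and LOC110114424 went from 112 to 41.5 CPM and from 146 to 46.0 CPM. Mannose-binding lectins had 3 of 17 members higher (17.6%) and 4 lower (23.5%). A lectin-like gene (LOC110108726) went from 17.0 to 480 CPM and from 52.3 to 2625 CPM, and the abundant LOC110113710 from 4476 to 1519.5 CPM and from 5997 to 1886 CPM. Lectin genes are close copies, so their counts are uncertain.

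Both 1.0 mg/L libraries were above each of the other 6 older libraries for 811 genes (3.81%) and below each of them for 1117 (5.25%), at any size of difference. At least 2-fold, 10 genes (0.047%) were higher than in each of the other 6 and 3 (0.0141%) lower. Of the 10 leading higher genes, 3 had both 1.0 mg/L libraries above all others at any size. These 10 were chosen for standing above the 0 mg/L libraries, so their share cannot be set against the 3.81% of all genes. The gene for a proline-rich protein (LOC110092853, scaffold NW_021319159.1 from 63156 to 63696) stood at 29.7 CPM with 1.0 mg/L at 2 weeks, against 3.65 CPM without 6-BA, 5.21 with 0.5 mg/L and 4.23 with 2.0 mg/L. At 4 weeks it stood at 40.2 CPM, against 5, 7.37 and 3.66 CPM in the same order. Over 8 libraries its log2 fold change was 3.01 with an unadjusted edgeR p of 0.000219 and an adjusted p of 0.687. EXORDIUM-like 2 (LOC110109331), of a family linked in Arabidopsis to growth under brassinosteroid, stood at 40.6 CPM with 1.0 mg/L at 2 weeks, against 3.77, 1.10 and 2.63 CPM in that order, and at 15.6 CPM at 4 weeks, against 1.44, 1.63 and 0.286 CPM. An annexin (LOC110101621), an ethylene-responsive factor (LOC110099386), a gibberellin-regulated protein (LOC114580039) and the cationic peroxidase LOC110100265 were also among these 10, which were chosen after their values were seen.

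The same dose in young plantlets, in separate libraries, gave a different list. Of 19420 genes tested there, edgeR called 604 higher (3.11%) and 816 lower (4.2%) with 6-BA than with water. Of the 316 genes higher in both weeks in older plantlets 273 were among the 18270 genes tested in both experiments (1.49% of them), and of the 1145 lower genes 1013 (5.54%). Of the 273 higher genes 42 rose (15.4% of them, against 3.25% of the 18270, and 7.07% of the young list) and 15 fell (5.49%, against 3.99%, and 2.06% of the young list). Of the 1013 lower genes 75 rose (7.4%, and 12.6% of the young list) and 53 fell (5.23%, and 7.27% of the young list). Across the 18270 genes the mean log2 ratio of older plantlets correlated at -0.01 with the young log2 fold change. With any 1 of the 4 young libraries left out, 21 to 35 of the higher genes rose and 10 to 15 fell, and 9 to 35 of the lower genes rose and 23 to 32 fell. The higher genes had 21 rises without replicate 2 of 6-BA and without replicate 1 of water, the lower genes 9 rises without replicate 2 of 6-BA, and among the lower genes falls outnumbered rises there and without either water library. Age, time of exposure and experiment differ between these sets and cannot be told apart.

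**Figure D5:**
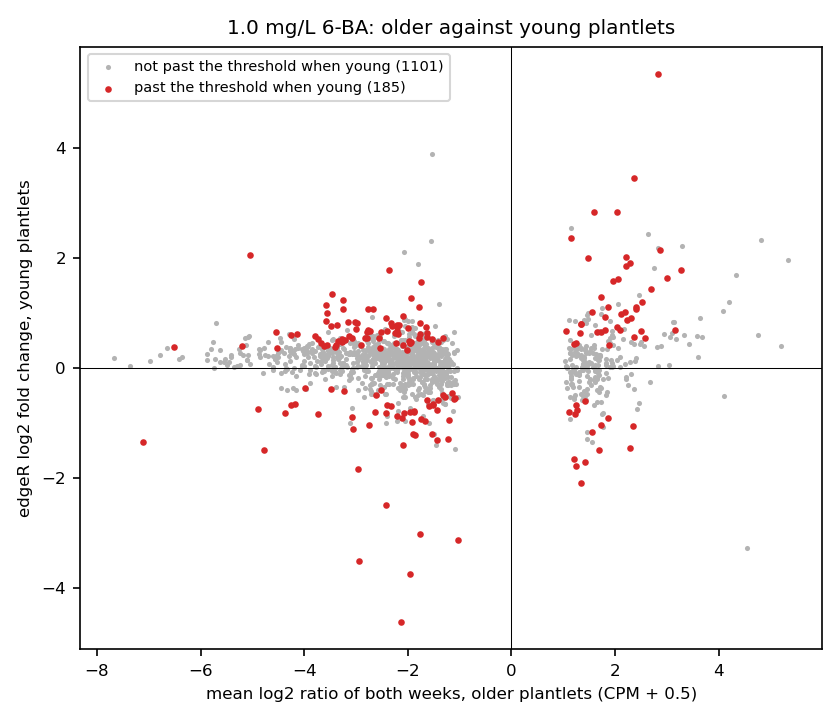
Mean log2 ratio of both weeks in older plantlets (x axis) and edgeR log2 fold change in young plantlets (y axis), both for 1.0 mg/L 6-BA, for 1286 genes at least 2-fold in both weeks. Red points (185) passed an adjusted p of 0.05 in young plantlets and grey points (1101) did not; most lower genes lie near 0 on the y axis.

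Cytokinin dehydrogenase 6 and the proline-rich protein gene rose in young plantlets too. LOC110105324 stood at 0.664 and 0.374 CPM with water and at 22.6 and 19.4 CPM with 6-BA (log2 fold change 5.33, SE 0.26, edgeR adjusted p = 1.69e-05). LOC110092853 went from 23.9 and 22.2 CPM to 104 and 97.5 CPM (log2 fold change 2.13, SE 0.13, edgeR adjusted p = 5.9e-05). Of the 7 cytokinin dehydrogenases 4 rose and 1 fell in young plantlets, and of 18 response regulators 6 rose and 1 fell. Over the 18270 genes tested in both experiments 3.25% rose and 3.99% fell. With any 1 of the 4 young libraries left out, 2 or 3 dehydrogenases and 3 or 4 response regulators rose. Cytokinin dehydrogenase 11 (LOC110094204) was the one that fell, with a log2 fold change of -0.96 (edgeR adjusted p = 0.000784).

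The division genes did not show in young plantlets what they showed in older ones. Of the 18270 genes tested in both experiments 3.25% rose and 3.99% fell in young plantlets, the shares against which the lists here stand. Of 128 cell division genes 7 rose and 2 fell, and none rose when any 1 of the 4 young libraries was left out. Cyclin-B1-1 (LOC110096329) was at 32.8 and 29.0 CPM with water and at 35.0 and 37.8 CPM with 6-BA (log2 fold change 0.24, edgeR adjusted p = 0.337). Of 50 histone genes none rose and 1 fell. Of 95 cuticle and wax genes 23 rose and 4 fell, against 4 higher and 20 lower in older plantlets. The 23 became 8 without replicate 2 of 6-BA and 13 without any 1 of the other 3 libraries. Beta-glucosidase 1-like (LOC110092217) fell in young plantlets (log2 fold change -0.78, SE 0.11, edgeR adjusted p = 0.00313), and so did the WRKY 40 gene LOC110111979 (-1.06, edgeR adjusted p = 0.0038), both of which were higher in older ones. A second gene described as WRKY 40 (LOC110111426) was also higher in older plantlets, with a smaller log2 ratio of 1.81. It rose in young ones (0.90, edgeR adjusted p = 0.0133), and by 0.75 to 1.09 with any 1 of the 4 libraries left out. The furostanol glycosidase LOC110100117 fell (-1.49, edgeR adjusted p = 0.000642), as did a BURP domain gene (LOC110093589) with a log2 fold change of -3.75 (edgeR adjusted p = 0.000704). In older plantlets LOC110093589 went from 24.2 to 5.57 CPM and from 36 to 9.35 CPM. All 6 older libraries with 6-BA, at 4.00 to 9.35 CPM, were below both without it. The gene was named for its low p in the fit to these same 8 libraries, so their order is no separate support. With any 1 of the 4 libraries left out, the young log2 fold changes of LOC110092217, LOC110111979, LOC110100117 and LOC110093589 kept their sign. So did those of LOC110105324, LOC110092853 and LOC110094204.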

How the data were processed

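RNA sequencing counts of 4 libraries (0 and 1.0 mg/L 6-BA, 2 and 4 weeks) were compared within week, beside the other 4 older and 8 young libraries. Samples were grouped by the dose, week and hormone in the labels. The authors deposited a raw read count per gene and library, and per the file headers also FPKM with gene length and position. The submitters' processing notes name Cufflinks 2.2.2, HISAT2 2.0.6 and edgeR with no version. Build, annotation and strandedness were not given in the sources used here, so antisense and overlapping genes cannot be separated. No column belonged to another sample. The older table held 28537 features, 26185 with gene numbers, of which 26064 were found in a RefSeq gene table.

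CPM with TMM scaling, log2 ratios of CPM + 0.5 and all tests were computed here with DESeq2 1.42.0, edgeR 4.0.16 and limma 3.58.1 under R 4.3.3, with tables and plots in Python 3.11.15, NumPy 2.4.6, pandas 2.3.3 and Matplotlib 3.10.9. Low counts were filtered with filterByExpr (21267 genes kept, 19420 in young plantlets), and genes were called by the two-sided quasi-likelihood test of edgeR at a Benjamini-Hochberg adjusted p of 0.05. Standard errors are model-based. Scripts were tested on simulated data. Counting intervals and the floor of 3 counts cover counting error only, since reads are not independent molecules. The depth of 15.1 to 16.3 counts in units of 1e6 leaves genes under 1 CPM with few counts.

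The comparison, the gene lists (words in gene descriptions) and the rule for named genes were chosen with earlier results of these data known. The rule took, among genes with a mean of at least 5 CPM, the 10 a direction with the largest smaller ratio of both weeks. It added up to 3 a direction of each list with a mean of at least 1 CPM. It also added every cytokinin dehydrogenase, response regulator, beta-glucosidase, mannosidase and mannan synthesis gene at least 2-fold in both weeks. From genes that went opposite ways it took the 3 a direction with the largest smaller ratio. Last came the 3 a direction with the lowest p over 8 libraries. Other genes named, DNA topoisomerase 2 and cytokinin dehydrogenase 11, were chosen after their values were seen. Same-numbered young libraries correlated at 0.0243 in their deviations from the group means, so the numbers were not taken as pairs. Alternatives covered scaling, pseudocount, fold, filter, tool, libraries entered and left-out libraries.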

Additional observations from a re-analysis of the deposited data

Results flagged for a closer look

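Genes with a mean of at least 5 CPM that differed by more than 2-fold in opposite directions at 2 and at 4 weeks are listed here, and the difference between weeks was not tested, since each dose and week had 1 library. Fasciclin-like arabinogalactan protein 11 (LOC110116730), of a family of wall proteins, had a log2 ratio of 1.0 against 0 mg/L of 2.40 at 2 weeks (2.14 and 13.5 CPM without and with 6-BA) and -2.36 at 4 weeks (8.27 and 1.20 CPM). A senescence-specific cysteine protease SAG39 gene (LOC110115416) had log2 ratios of 1.59 and -1.97. UDP-glucuronic acid decarboxylase 5-like (LOC110104470), an enzyme that makes UDP-xylose, had 1.63 and -1.47 and overlaps another gene on the same strand, so its reads may be shared.

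The 3 named for the other direction were a pair of unnumbered loci with a reverse transcriptase domain and 1 enzyme gene. One of these loci had log2 ratios of -3.92 and 3.08, and the other had -3.28 and 2.61. Caffeic acid O-methyltransferase (LOC110101682), an enzyme class of lignin synthesis, had -2.50 (10.9 and 1.52 CPM) and 3.98 (0.345 and 12.8 CPM).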

How the results depend on the processing

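The counts of genes at least 2-fold in both weeks, 316 higher and 1145 lower, were 312 and 1072 with the authors' FPKM and 318 and 1148 without a filter. Library totals gave 198 higher and 1377 lower, a pseudocount of 2 gave 151 and 699, a fold of 1.5 gave 1133 and 2108, and a fold of 4 gave 31 and 426. Of 202 named genes at least 2-fold in both weeks, 53 missed 2-fold in a week under at least 1 of FPKM, library totals and the pseudocount of 2, and none reversed. The edgeR test over 8 libraries called 0 genes, also with other scalings, without a filter, without the week term and without each library. The 4 libraries alone gave 20 higher and 256 lower, and DESeq2 on 8 libraries 20 and 13. Chosen after seeing the data, the 4 libraries gave 12 and 238 with library totals and 226 and 790 with DESeq2. Of the 276 edgeR calls over 4 libraries, 250 were also called with library totals and 264 with DESeq2. In young plantlets 604 genes rose and 816 fell, with a replicate block 482 and 688, and with DESeq2 918 and 1129. Without 1 young library the counts were 174 to 322 and 320 to 477, lowest without replicate 2 of 6-BA. The cause of these shifts was not tested. Depth limits genes under about 1 CPM, and the single library per dose and week limits the rest.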
